A study of Mus musculus with 12 samples.

Results

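Metallothionein and zinc handling genes were followed in SCC7 cells, a mouse squamous carcinoma line, across 4 media conditioned by macrophages. The set is a list of 8 genes, chosen with earlier results of these data known, out of 55487 in the count table. It holds the metallothioneins Mt1 and Mt2, the transcription factor gene Mtf1, the zinc exporters Slc30a1 and Slc30a4, and the zinc importers Slc39a6, Slc39a10 and Slc39a14. All 8 were found by Ensembl identifier and all 8 passed the expression filter, as did 14509 genes in all. RNA was sequenced from SCC7 cells, wild type in every library, after 24 h in medium from mouse bone-marrow-derived macrophages. The macrophages had been kept for 24 h in plain DMEM (M0 CM), in 20 ng/ml interferon-gamma (M1 CM), in 20 ng/ml interleukin-4 (M2 CM), or in 75% medium conditioned by SCC7 cells (TAM CM). Each group had 3 libraries, 12 in all. The labels do not say whether cytokine or SCC7 medium was removed before collection, and a group without macrophage medium was not analysed here.

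Metallothioneins are small cysteine-rich proteins that bind zinc and copper in the cytosol and are among the genes most readily induced by metals. Free zinc activates the zinc-finger protein MTF1, which binds metal response elements and switches on metallothionein genes and Slc30a1. Proteins of the Slc30a family (ZnT) move zinc out of the cytosol, across the plasma membrane or into vesicles, and those of the Slc39a family (ZIP) move zinc into it. Cytokines, glucocorticoids and oxidative stress are also known to induce metallothioneins.

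The libraries held between 18996937 and 22596630 counts, and levels are given in CPM (the usual per-million scale) on library sizes scaled by TMM. Of the markers of squamous epithelium, Krt5, Krt14, Cdh1 and Epcam were at or near 0 in every group. Trp63 lay between 0.124 ± 0.0902 CPM (SD, n = 3) in M1 CM and 1.79 ± 0.141 in M0 CM, while the simple keratins Krt8 and Krt18 were expressed. The squamous and epithelial list of 7 markers summed to 358 to 389 CPM in the M0 CM libraries, to 166 to 169 with M1 CM, to 678 to 757 with M2 CM and to 88.8 to 99.0 with TAM CM. The macrophage list of 8 markers summed to 22.7 to 23.7 CPM in the M0 CM libraries, to 33.7 to 39.8 with M1 CM, to 22.5 to 24.9 with M2 CM and to 40.9 to 50.5 with TAM CM. Cd14 made up the greater share of that sum, at 17.3 CPM with M0 CM, 26.1 with M1 CM, 15.9 with M2 CM and 40.9 with TAM CM. Adgre1, Itgam and Ptprc stayed below 0.1 CPM on average, with 1 marker of the list at 0 in each group. Of the other markers, Cd68 was at 3.89 CPM with M0 CM, 6.99 with M1 CM, 5.03 with M2 CM and 2.89 with TAM CM. Mrc1 was at 0.681, 2.60, 1.90 and 0.725 CPM in the same order, Lyz2 at 0.831, 0.422, 0.416 and 1.31, and Csf1r at 0.303, 0.525, 0.371 and 0.140. The fibroblast list of 6 markers, led by Col1a2, summed to 2505 to 2651 CPM in the M0 CM libraries, to 1444 to 1542 with M1 CM, to 1471 to 1496 with M2 CM and to 1148 to 1203 with TAM CM. Its members did not move together: Col1a1, Col1a2, Col3a1 and Pdgfrb were lower on average with each of the other 3 media than with M0 CM, but Dcn went from 2.82 CPM to 12.5 with M1 CM, 4.10 with M2 CM and 16.9 with TAM CM. Pdgfra went from 236 CPM to 263 with M1 CM, 168 with M2 CM and 319.7 with TAM CM. The part of these markers in the results was not tested. For the third M2 CM library the label names melanoma as the cells. It was kept, and M2 CM results were also fitted without it. Nothing says that the libraries of a medium are separate cultures, so the spread behind each p-value is that between these samples only, which may be technical.

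The upstream sequences of Mt2, Mt1 and Slc30a1, the genes of the set that MTF1 is known to switch on, are shown to place their metal response element matches. Each of the 3 holds at least 1 match, as do 21.4% of all windows searched. They are the 250 bases before the RefSeq start site in GRCm38.p6, plus strand, with matches to the metal response element core (TGCACNC or TGCGCNC, either strand) in capitals. The stretches are chr8:94172368-94172617 for Mt2, chr8:94178839-94179088 for Mt1 and chr1:191906531-191906780 for Slc30a1.
Mt2: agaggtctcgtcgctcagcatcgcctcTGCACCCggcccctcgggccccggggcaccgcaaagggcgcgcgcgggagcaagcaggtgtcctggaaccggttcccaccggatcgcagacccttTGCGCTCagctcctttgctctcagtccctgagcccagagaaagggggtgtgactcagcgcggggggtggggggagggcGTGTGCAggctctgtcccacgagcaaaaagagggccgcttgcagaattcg
Mt1: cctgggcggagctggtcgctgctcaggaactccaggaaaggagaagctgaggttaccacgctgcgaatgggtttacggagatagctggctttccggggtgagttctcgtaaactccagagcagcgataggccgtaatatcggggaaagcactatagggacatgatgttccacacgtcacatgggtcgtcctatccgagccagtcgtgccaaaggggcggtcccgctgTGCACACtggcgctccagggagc
Slc30a1: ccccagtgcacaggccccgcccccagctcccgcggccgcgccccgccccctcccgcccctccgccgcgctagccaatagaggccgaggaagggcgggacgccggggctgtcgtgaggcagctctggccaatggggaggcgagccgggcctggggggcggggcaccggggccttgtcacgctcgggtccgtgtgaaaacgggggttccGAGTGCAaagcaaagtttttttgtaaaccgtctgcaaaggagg
The Mt2 stretch holds 3 matches and those of Mt1 and Slc30a1 hold 1 each. These counts are for the printed windows only, since which start sites SCC7 cells use was not tested. Bases after the RefSeq start were not searched, so 1 match for Mt1 is not a count for its whole promoter. Of 32851 such windows, 21.4% hold at least 1 match, 5.17% at least 2 and 1.26% at least 3. Windows were found for 6 of the 8 genes. Slc30a4 had 2 matches, while Mtf1 and both windows of Slc39a10 had none of these letters. GENCODE places the start of the principal transcript 46 bases downstream of the RefSeq start for Mt2, and 7 and 14 bases upstream of it for Mt1 and Slc30a1. Of the other motifs searched on either strand, the antioxidant response element TGACNNNGC matched once in Mt2 and once in Slc30a1, as in 10.2% of windows at least once. The glucocorticoid response element, a longer palindrome, matched once in Mt1, as in 0.387% of windows. The STAT palindrome TTCNNNGAA matched once in 1 window of Slc39a10, as in 7.02% of windows. That window has its RefSeq start at 46925776, outside the GENCODE span of the gene, which ends at 46892852. The window with its RefSeq start at 46853618 had no such match, and GENCODE places the principal transcript start at 46854046. No match of one motif shared bases with a match of another. A match is a run of letters, not a measured binding site.

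As a set the genes moved most in TAM CM, as did all genes tested, though Mt2 moved more in M1 CM. In TAM CM 6 of the 8 were higher and 2 lower than in M0 CM, 4 of them by at least 2-fold. All 8 had libraries that did not overlap those of M0 CM, against 73.1% of all genes. A call here means a Benjamini-Hochberg adjusted p under 0.05 in edgeR's quasi-likelihood test, which 70% of all genes reached in that comparison (35.1% higher, 34.9% lower), 19% with at least 2-fold. The median absolute log2 fold change was 1.07 over the 8 genes and 0.46 over all genes tested. For M1 CM these medians were 0.32 and 0.25, and for M2 CM 0.24 and 0.18. Since the 8 genes were chosen with earlier results known, their comparison with all genes is a description and not a test. In M1 CM 5 were higher and 1 lower, with 2 at least 2-fold apart, against 53.4% of all genes called, 27.7% higher, 25.6% lower and 8.55% at least 2-fold apart. Libraries did not overlap for 6 of the 8, against 58.8% of all genes. In M2 CM 4 were higher and 1 lower and none reached 2-fold, against 39.4% of all genes called, 21% higher, 18.5% lower and 3.25% at 2-fold. Libraries did not overlap for 7 of the 8, against 49.5% of all genes. When libraries were scaled by their totals only, all genes split into 3219 higher and 4626 lower in M1 CM, where TMM gave 4023 and 3719. The same change gave 2201 higher and 3653 lower in M2 CM, where TMM gave 3042 and 2681, and 4300 higher and 5891 lower in TAM CM, where TMM gave 5089 and 5067. The 3 comparisons share the M0 CM libraries. In these bulk samples, fewer cells expressing a gene and less RNA per cell cannot be told apart.

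**Figure D1:**
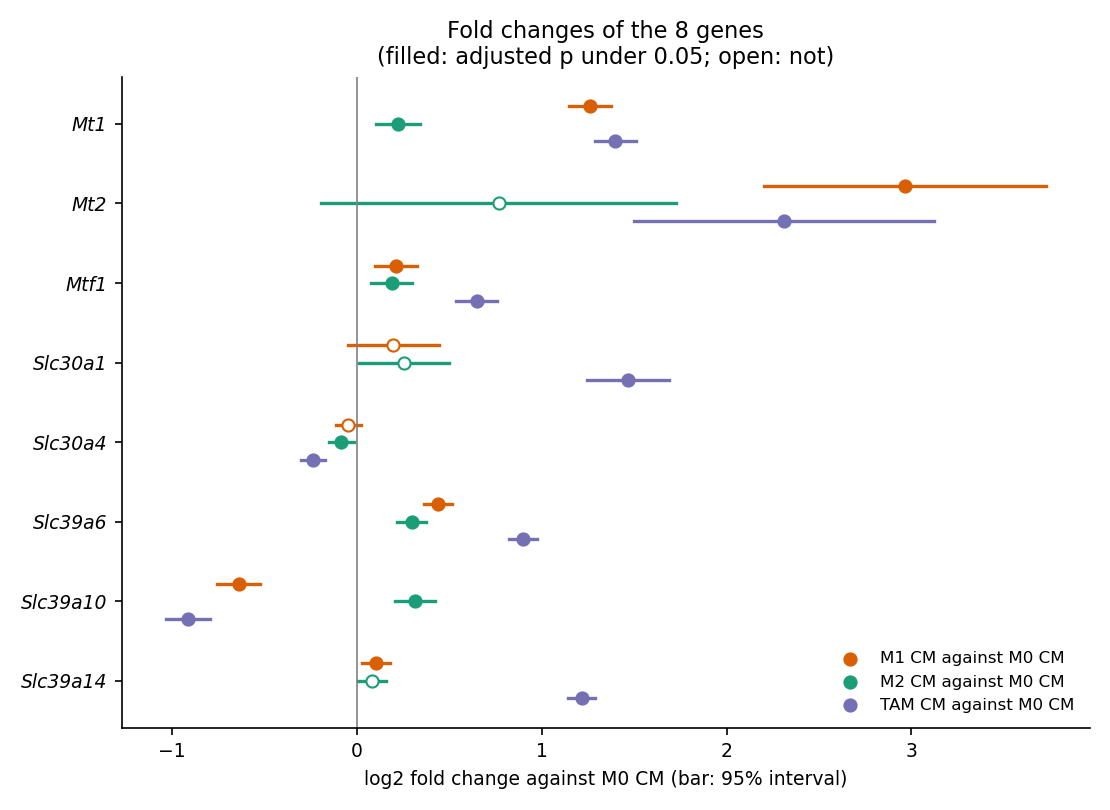
log2 fold change of each gene in M1 CM, M2 CM and TAM CM against M0 CM, with a bar for its 95% interval; filled points have an edgeR quasi-likelihood adjusted p under 0.05. Mt1 lies above 1 in M1 CM and TAM CM, Slc30a1 and Slc39a14 lie above 1 in TAM CM only among the 3 media, and Slc39a10 lies below 0 in M1 CM and TAM CM and above 0 in M2 CM.

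Mt1 (ENSMUSG00000031765, chromosome 8, 94179082 to 94180327 in GRCm38) stood at 95.2, 112 and 97.1 CPM in the M0 CM libraries. It was at 239, 231 and 259 CPM in M1 CM, at 113, 119.6 and 121 in M2 CM, and at 279, 257 and 265 in TAM CM. The M1 CM and TAM CM libraries all lay well above the M0 CM and M2 CM libraries and overlapped each other, and the M2 CM libraries lay just above those of M0 CM. Against M0 CM the fold was 2.40 in M1 CM (log2 1.26, SE 0.06, edgeR quasi-likelihood adjusted p = 1.71e-11) and 2.64 in TAM CM (log2 1.40, SE 0.06, adjusted p = 1.82e-12). In M2 CM it was 1.17 (log2 0.22, SE 0.06, edgeR adjusted p = 0.00776), and 0.20 on the log2 scale without the third M2 CM library (edgeR adjusted p = 0.0448).

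Mt2 (ENSMUSG00000031762, chromosome 8, 94172664 to 94173568) lies beside Mt1 and was counted far less often. With M0 CM its libraries held 8, 13 and 12 counts, or 0.340, 0.646 and 0.578 CPM. M1 CM gave 68, 142 and 44 counts, or 3.06, 6.83 and 2.25 CPM. M2 CM gave 24, 14 and 17 counts, or 1.11, 0.702 and 0.808 CPM, and TAM CM gave 48, 62 and 45 counts, or 2.62, 2.80 and 2.29 CPM. The groups M1 CM and TAM CM were again above the other media and overlapped each other, and the second M1 CM library stood far above the remaining ones. Mt2 rose 7.80-fold in M1 CM (log2 2.96, SE 0.39, edgeR quasi-likelihood adjusted p = 1.27e-06) and 4.96-fold in TAM CM (log2 2.31, SE 0.41, adjusted p = 4e-05). Without the second M1 CM library the M1 CM fold was 5.14. In M2 CM the log2 fold change was 0.77, with a 95% interval from -0.20 to 1.73 (edgeR adjusted p = 0.239).

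The pair did not contribute equally. Of the counts of both genes, Mt1 held 99.5 ± 0.131% with M0 CM (SD, n = 3), 98.3 ± 1.06% with M1 CM, 99.3 ± 0.207% with M2 CM and 99.0 ± 0.113% with TAM CM. Per kilobase of exon, the mean level of Mt1 was 91.7 times that of Mt2 with M0 CM, 28.3 times with M1 CM, 63.7 times with M2 CM and 49.0 times with TAM CM. On the lengths of the principal transcripts these ratios were 181, 55.9, 126 and 96.7, in the same order of media. No run of 50 bases in the longest Mt1 or Mt2 transcript occurs in a transcript of another gene, so the pair does not share reads of that length. An antisense gene, Gm45774, covers 432 of the 588 exon bases of Mt2 (73.5%) in GENCODE M21. It had 0 counts over the M0 CM libraries, 12 with M1 CM, 2 with M2 CM and 4 with TAM CM. The sources used here do not give how reads over both genes were counted, and the part of this overlap in the low Mt2 counts was not tested. The other metallothionein genes, the neuronal Mt3 and the epithelial Mt4, were at 1 count or none in each library and were not tested.

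**Figure D2:**
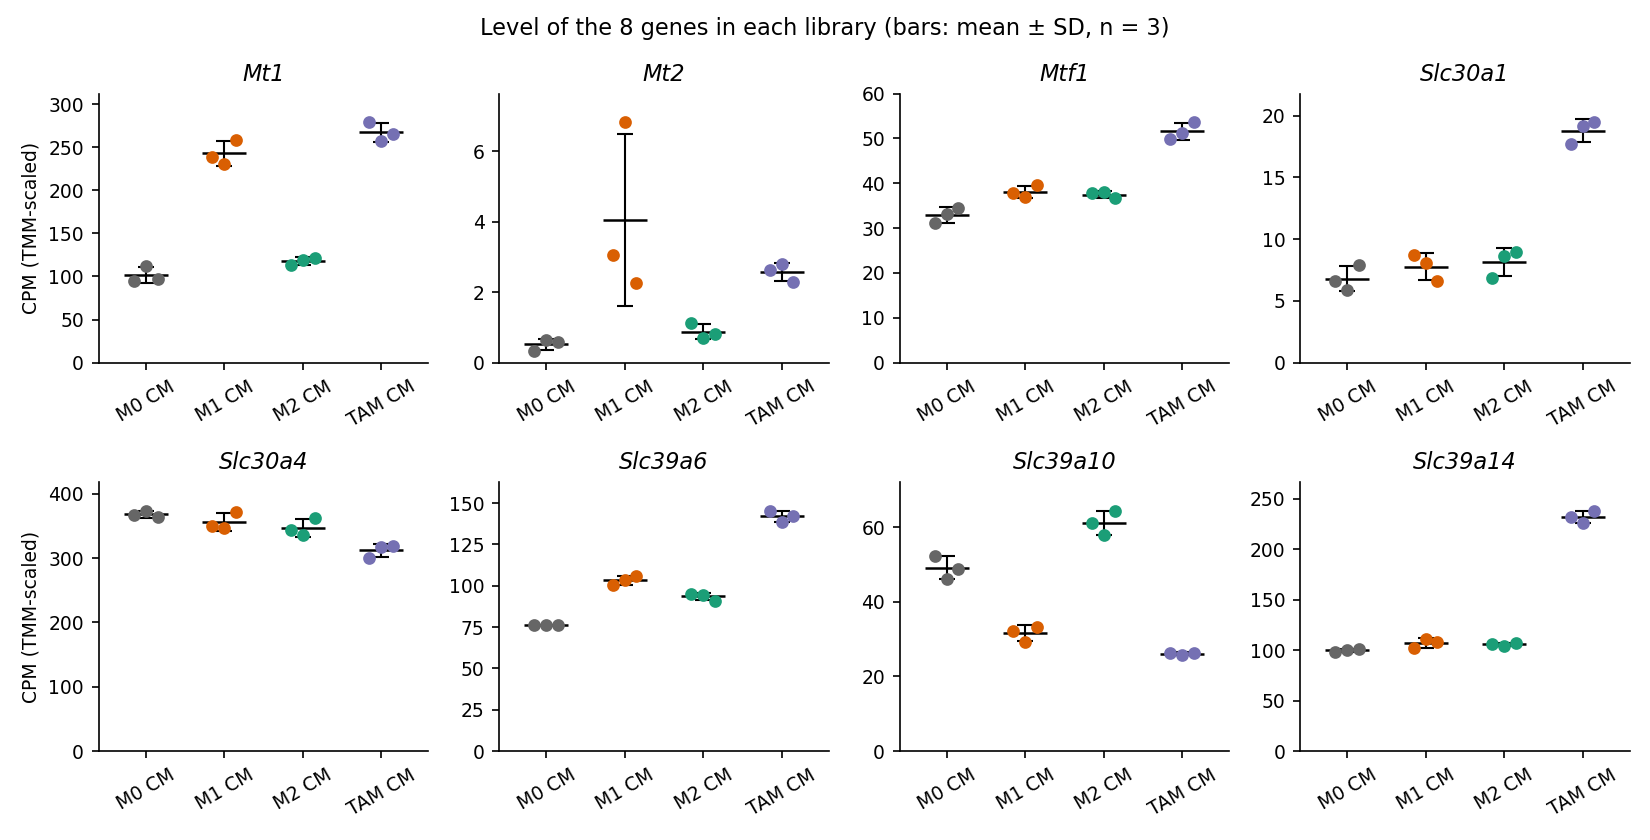
Level of each gene in every library, in CPM on TMM-scaled library sizes (each axis starts at 0), with the mean and SD of the 3 libraries of each medium. The TAM CM libraries stand apart from the other media for Mtf1, Slc30a1, Slc39a6 and Slc39a14, while the second M1 CM library is the high point for Mt2 at 6.83 CPM.

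Mtf1 (ENSMUSG00000028890, chromosome 4, 124802104 to 124849800) encodes the metal-responsive transcription factor. With M0 CM it stood at 31.1, 33.2 and 34.6 CPM. M1 CM gave 37.8, 36.9 and 39.5 CPM, M2 CM gave 37.8, 38.0 and 36.7, and TAM CM gave 49.9, 51.1 and 53.6. Every library of the other media lay above those of M0 CM, and TAM CM lay above all others. The fold against M0 CM was 1.57 in TAM CM (log2 0.65, SE 0.06, edgeR quasi-likelihood adjusted p = 1.15e-14), 1.16 in M1 CM (adjusted p = 0.00176) and 1.14 in M2 CM (adjusted p = 0.00747). The M2 CM call was lost without the first M0 CM library (log2 0.14, edgeR adjusted p = 0.0776) and with library sizes alone (log2 0.13, adjusted p = 0.0644). A gene on the opposite strand, 1110065P20Rik, shares 721 of 8907 exon bases with Mtf1 and stood at 7.15 ± 0.858 to 7.65 ± 0.614 CPM (SD, n = 3) over the media.

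Of the exporters, Slc30a1 (ENSMUSG00000037434, chromosome 1, 191906767 to 191913247) encodes ZnT1, which carries zinc out through the plasma membrane. With M0 CM it was at 6.59, 5.92 and 7.90 CPM. M1 CM gave 8.68, 8.03 and 6.6 CPM, M2 CM gave 6.83, 8.63 and 8.93, and TAM CM gave 17.7, 19.2 and 19.5. The first 3 media overlapped, and every TAM CM library was clear of them. The rise in TAM CM was 2.76-fold (log2 1.47, SE 0.11, edgeR quasi-likelihood adjusted p = 2.61e-16). In M1 CM the log2 fold change was 0.20, with a 95% interval from -0.05 to 0.44 (edgeR adjusted p = 0.192). In M2 CM it was 0.25, from 0.01 to 0.50 (edgeR adjusted p = 0.104), and it passed without the third M0 CM library (adjusted p = 0.0362) or the first M2 CM library (adjusted p = 0.0275). The antisense gene 1700034H15Rik, which shares 468 of the 5244 exon bases of Slc30a1, had 4 counts over the M0 CM libraries, 4 with M1 CM, 8 with M2 CM and 39 with TAM CM, and its part in the rise was not tested.

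Slc30a4 (ENSMUSG00000005802, chromosome 2, 122681233 to 122702663) encodes ZnT4, a vesicular exporter known for loading zinc into milk. It was the most counted of the 8 genes in every medium, at 367, 373 and 363 CPM in M0 CM and at 299.6, 317 and 319 in TAM CM. Its M1 CM libraries were at 349.9, 347 and 372 CPM and those of M2 CM at 343, 335 and 362. The TAM CM libraries were below all others, while M1 CM overlapped both M0 CM and M2 CM. Slc30a4 was 1.18-fold lower in TAM CM (log2 -0.24, SE 0.03, edgeR quasi-likelihood adjusted p = 2.19e-08). It was 1.06-fold lower in M2 CM (log2 -0.08, SE 0.03, edgeR adjusted p = 0.0432), a call lost without any 1 of 6 libraries (adjusted p from 0.0501 to 0.202), which were all 3 of M0 CM, the first and second of M2 CM and the third of TAM CM. In M1 CM its log2 fold change was -0.05, from -0.11 to 0.02 (edgeR adjusted p = 0.257), and with library sizes alone it was -0.11 (adjusted p = 0.00369).

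Of the importers, Slc39a6 (ENSMUSG00000024270, chromosome 18, 24579881 to 24603817) encodes ZIP6, a plasma membrane transporter also called LIV-1. Its M0 CM libraries were at 76.1, 76.3 and 76.0 CPM. Those of M1 CM were at 100.2, 103 and 106, those of M2 CM at 95.1, 94.6 and 90.9, and those of TAM CM at 145, 139 and 142. The 4 media did not overlap at any point, in the order M0 CM, M2 CM, M1 CM and TAM CM. Slc39a6 rose 1.86-fold in TAM CM (log2 0.90, SE 0.04, edgeR quasi-likelihood adjusted p = 3.21e-26), 1.35-fold in M1 CM (log2 0.44, SE 0.04, adjusted p = 1.02e-13) and 1.23-fold in M2 CM (log2 0.30, SE 0.04, adjusted p = 2.17e-08).

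Slc39a10 (ENSMUSG00000025986, chromosome 1, 46807544 to 46892852) encodes ZIP10, the closest relative of ZIP6, and is a gene that MTF1 is known to repress when zinc is plentiful. With M0 CM its libraries were at 52.3, 46.2 and 48.8 CPM. M1 CM gave 32.2, 29.2 and 33.3 CPM, M2 CM gave 61.1, 58.0 and 64.3, and TAM CM gave 26.4, 25.7 and 26.2. Again the 4 media did not overlap, in the order TAM CM, M1 CM, M0 CM and M2 CM. Slc39a10 was 1.89-fold lower in TAM CM (log2 -0.92, SE 0.06, edgeR quasi-likelihood adjusted p = 1.01e-18) and 1.56-fold lower in M1 CM (log2 -0.64, SE 0.06, adjusted p = 2.33e-13). In M2 CM it rose 1.24-fold (log2 0.31, SE 0.05, edgeR adjusted p = 5.6e-06), and by 0.27 on the log2 scale without the third M2 CM library (adjusted p = 0.000397). Of the 8 genes it alone was called in opposite directions in M1 CM and M2 CM. Runs of 50 bases shared with the gene Gm6801 make up 0.496% of its longest transcript.

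Slc39a14 (ENSMUSG00000022094, chromosome 14, 70303469 to 70351425) encodes ZIP14, which carries zinc, manganese and iron and is known to be induced by interleukin-6 in the liver. With M0 CM it was at 98.3, 101 and 101 CPM. M1 CM gave 102, 111 and 109 CPM, M2 CM gave 106, 104 and 107, and TAM CM gave 232, 226 and 238. The TAM CM libraries formed a group of their own, and those of the other media lay within a narrow band. Slc39a14 rose 2.32-fold in TAM CM (log2 1.22, SE 0.04, edgeR quasi-likelihood adjusted p = 1.06e-32). The M1 CM fold was 1.07 (log2 0.10, SE 0.04, edgeR adjusted p = 0.0197), and the call was lost without the first M0 CM library (adjusted p = 0.0833), the second M1 CM library (0.122) or the third M1 CM library (0.0591), and also with library sizes alone (0.449) and by DESeq2 (0.0634). In M2 CM the log2 fold change was 0.08, from 0.01 to 0.16 (edgeR adjusted p = 0.0842).

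The media other than M0 CM were also compared with each other. In TAM CM against M2 CM, all 8 genes passed, 6 higher and 2 lower, where 68.4% of all genes passed, 34.3% higher and 34.1% lower. All 8 had libraries that did not overlap, against 71.3% of all genes, and 5 were at least 2-fold apart, against 17.4%. Mt1 was 2.26-fold, Mt2 2.92-fold, Slc30a1 2.31-fold and Slc39a14 2.19-fold higher there, and Slc39a10 was 2.35-fold lower. In TAM CM against M1 CM, 5 were higher and 2 lower, where 67.2% of all genes passed, 32.8% higher and 34.4% lower. Libraries did not overlap for 6, against 69.5% of all genes, and 2 were at least 2-fold apart, against 15.1%. Mt1 differed by 0.14 on the log2 scale (SE 0.05, edgeR quasi-likelihood adjusted p = 0.0361), with overlapping libraries, and this call was lost without the first M1 CM library (adjusted p = 0.12), the second M1 CM library (0.12), the second (0.0611) or the third (0.0503) M2 CM library, or the first (0.127) or the third (0.0686) TAM CM library. It was also lost with library sizes alone (log2 0.11, edgeR adjusted p = 0.0646). Mt2 was 1.57-fold lower in TAM CM than in M1 CM (edgeR adjusted p = 0.0633). Mt2 passed without the first (0.0232) or the third (0.00118) M1 CM library, and its fold was 0.965 without the second. In that same comparison Slc30a1 was 2.41-fold and Slc39a14 2.16-fold higher in TAM CM (edgeR adjusted p = 2.63e-14 and 4.38e-31), and Slc39a10 was 1.21-fold lower (adjusted p = 0.000196). In M2 CM against M1 CM, 1 gene was higher, Slc39a10 by 1.94-fold, and 3 were lower, where 56.2% of all genes passed, 27.8% higher and 28.4% lower. Libraries did not overlap for 4, against 59.8% of all genes, and 2 were at least 2-fold apart, against 8.97%. The lower genes were Mt1, by 2.06-fold, Mt2, by 4.59-fold, and Slc39a6, by 1.10-fold. Without the third M2 CM library, 1 of the 8 genes was higher and 3 were lower, and 7601 of all genes passed where all libraries gave 8157.

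Levels of different genes were compared per kilobase of exon. In M0 CM, Mt1 was highest of the 8 at 81.4 ± 7.30 CPM per kilobase (SD, n = 3), followed by Slc30a4 at 67.1 ± 0.928, Slc39a6 at 18.7 ± 0.0356 and Slc39a14 at 9.47 ± 0.131. Slc39a10 came next at 8.06 ± 0.505 CPM per kilobase, then Mtf1 at 3.70 ± 0.197, Slc30a1 at 1.30 ± 0.193 and Mt2 at 0.887 ± 0.274. Within 1 SD the levels of Slc30a1 and Mt2 overlapped there. In TAM CM, Mt1 reached 214 ± 8.80 CPM per kilobase against 56.9 ± 1.93 for Slc30a4, Slc39a14 was at 21.99 ± 0.559, and Slc39a10 at 4.28 ± 0.0609 was within 1 SD of Mt2 at 4.37 ± 0.439. On the length of the principal transcript, a choice added after the annotation had been seen, Mt1 was at 185 CPM per kilobase in M0 CM and Slc39a14 at 20.3, slightly above Slc39a6 at 19.6.

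**Figure D3:**
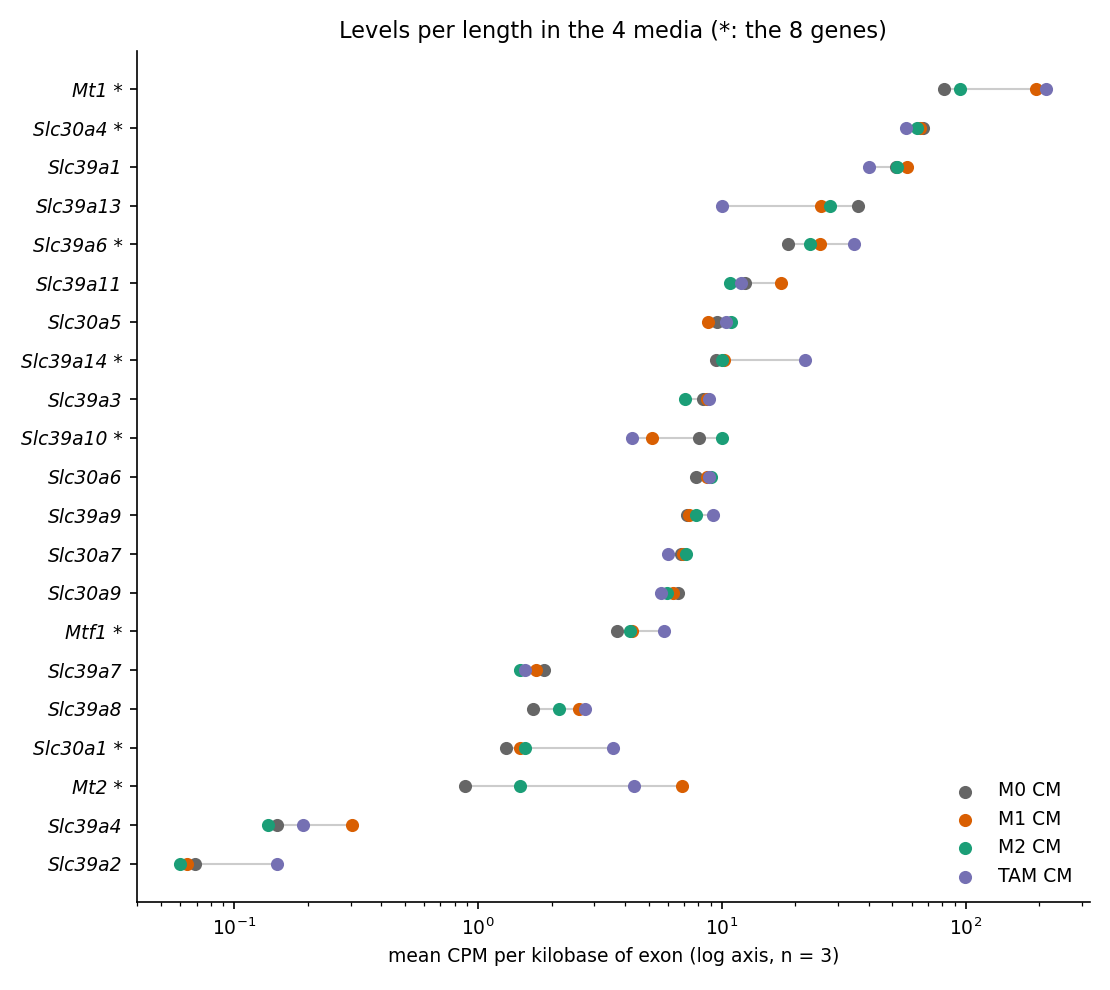
Mean level per kilobase of exon (log axis) of the 8 genes, marked with a star, and of the other ZnT and ZIP genes tested, in each medium. Mt1 is the highest gene in every medium, and Slc39a13 in TAM CM, at 9.98 CPM per kilobase, is far to the left of its other 3 points.

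The whole transporter families, with the genes of the set among them, give the setting of these genes. Of the 10 ZnT genes listed 6 were tested and of 14 ZIP genes 12; the 4 ZnT and 2 ZIP genes left out had at most 6 counts in a library. In TAM CM 3 of 6 ZnT genes were higher and 3 lower, and 4 of 12 ZIP genes were higher and 3 lower. M1 CM had 0 ZnT genes higher and 1 lower, with 6 ZIP genes higher and 2 lower. M2 CM had 2 ZnT genes higher and 2 lower, with 4 ZIP genes higher and 3 lower. Of all genes tested, 70% were called in TAM CM, 53.4% in M1 CM and 39.4% in M2 CM. Over the ZIP genes tested the median log2 fold change was 0.22 in TAM CM. That over the ZnT genes was -0.02, beside 0.00 over all genes. Without the genes of the set, 2 of 9 ZIP genes were higher and 2 lower in TAM CM, with a median of 0.09. Of 4 ZnT genes, 2 were then higher and 2 lower, with a median of -0.02. In M1 CM the other ZIP genes were 4 higher and 1 lower, and in M2 CM 2 and 3. The other ZnT genes were 0 and 1 in M1 CM and 2 and 1 in M2 CM.

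The largest change among the other transporters was that of Slc39a13, which encodes ZIP13, a transporter of internal membranes needed in connective tissue. It went from 175 ± 4.60 CPM in M0 CM (SD, n = 3) to 48.6 ± 1.959 in TAM CM (edgeR quasi-likelihood adjusted p = 4.51e-38), and stood at 124 ± 4.74 in M1 CM and 135 ± 3.71 in M2 CM, both lower by the test. Slc39a8, the closest relative of Slc39a14, rose in each medium, from 12.9 ± 1.65 CPM in M0 CM to 19.8 ± 0.857 with M1 CM, 16.4 ± 1.87 with M2 CM and 20.98 ± 1.6 with TAM CM. Slc39a11 rose in M1 CM, from 41.8 ± 0.553 to 58.8 ± 2.61 CPM, and fell in M2 CM to 36.3 ± 1.76. Slc39a1, a plasma membrane importer, was at 122 ± 0.853 CPM in M0 CM, higher in M1 CM at 136 ± 4.44 and lower in TAM CM at 94.4 ± 2.60. Slc39a9 was higher in M2 CM and TAM CM, at 79.5 ± 2.02 and 93.0 ± 2.40 against 72.8 ± 2.25 CPM in M0 CM, and Slc39a3 was lower in M2 CM, at 28.2 ± 1.33 against 33.5 ± 1.18.

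The other 4 ZnT genes tested differed from M0 CM by at most 0.23 on the log2 scale. Slc30a5 was at 69.7 ± 0.571 CPM with M0 CM (SD, n = 3), 64.2 ± 0.750 with M1 CM, 79.2 ± 4.40 with M2 CM and 75.9 ± 2.14 with TAM CM, all 3 differences past the test. Its partner Slc30a6 was at 24.0 ± 1.06 CPM in M0 CM and higher in M2 CM, at 27.6 ± 2.16, and TAM CM, at 27.3 ± 1.63. Slc30a7 was lower in TAM CM, at 66.9 ± 0.974 against 75.3 ± 2.64 CPM, and Slc30a9 was lower in TAM CM, at 69.3 ± 0.788, and in M2 CM, at 73.7 ± 1.89, against 81.4 ± 2.33 in M0 CM. Slc39a7 did not pass against M0 CM in any medium and was at 3.84 ± 0.772 to 4.80 ± 1.19 CPM. Slc39a4 was higher in M1 CM at 0.943 ± 0.360 against 0.464 ± 0.0408 CPM, and Slc39a2 stayed below 1 CPM on average and did not pass.

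**Figure D4:**
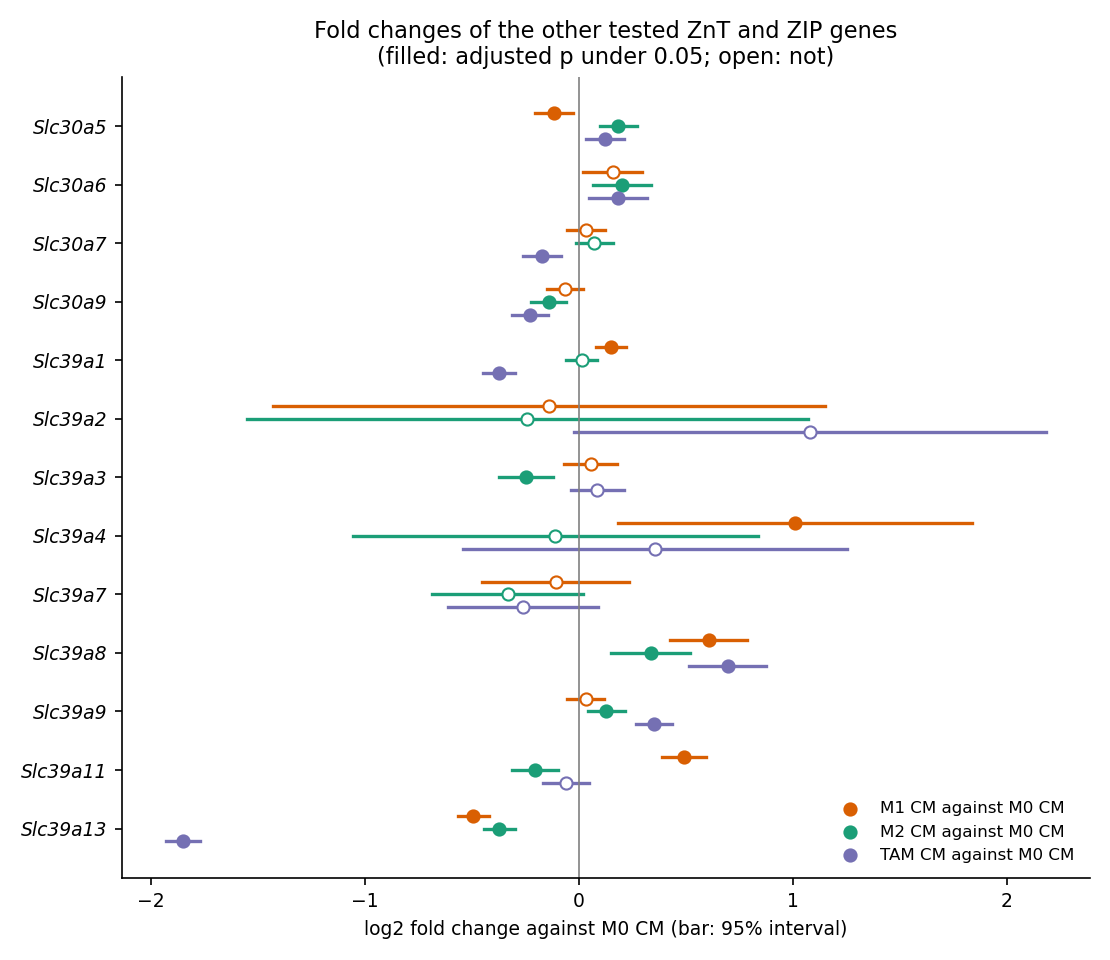
log2 fold change against M0 CM of the other 13 ZnT and ZIP genes tested, with a bar for its 95% interval; filled points have an edgeR quasi-likelihood adjusted p under 0.05. Slc39a13 in TAM CM lies near -1.85, and the wide bars of Slc39a2 and Slc39a4 belong to genes below 1 CPM.

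Lists of genes with known ties to metallothionein control were read beside these values. Among 5 tested of 6 other reported MTF1 targets, 2 were higher and 2 lower in TAM CM, 2 and 2 in M1 CM, and 0 and 2 in M2 CM. Gclc, a subunit of the glutathione-making enzyme, went from 126 CPM in M0 CM to 317 in TAM CM and 108 in M2 CM. Selenow, a small selenoprotein gene, rose from 55.6 CPM with M0 CM to 91.7 with M1 CM and fell to 47.7 with M2 CM. Pgf, a growth factor of the VEGF family, fell from 3.23 CPM to 1.46 in M1 CM and 0.368 in TAM CM. Ndrg1, not among the genes of smallest p, went from 106 CPM in M0 CM to 282 in M1 CM and 822 in TAM CM. It stood at 112 CPM in M2 CM.

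Among 10 tested of 12 copper handling genes, 2 were higher and 6 lower in TAM CM, 4 and 1 in M1 CM, and 2 and 2 in M2 CM. Atox1, a copper chaperone, rose from 84.4 CPM in M0 CM to 101 in M1 CM and fell to 53.2 in TAM CM. The metalloreductase genes Steap2 and Steap3 both fell in TAM CM, from 377 to 289 and from 83.8 to 67.3 CPM, and in M2 CM, to 342 and 65.8 CPM.

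The glucocorticoid list held the receptor gene Nr3c1 beside response genes. Among 8 tested of its 9 genes, 2 were higher and 5 lower in TAM CM. M1 CM had 3 and 2, and M2 CM had 2 and 3. Nr3c1 was among those lower in TAM CM and in M2 CM. Klf9 went from 13.0 CPM in M0 CM to 30.003 in M1 CM and 74.9 in TAM CM, and Tsc22d3 from 10.8 to 18.5 and 28.8 CPM. Errfi1 rose from 126 CPM to 427 in M2 CM and 171 in M1 CM and fell to 82.6 in TAM CM.

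The interleukin-6 and STAT3 list held the cytokine genes Il6 and Lif, the receptor genes Il6ra, Il6st and Osmr, and Stat3 beside response genes. Of its 13 genes 12 were tested, and all 12 were higher in M1 CM. In TAM CM 5 were higher and 4 lower, and in M2 CM 6 and 2. Lif and Osmr were among those higher in TAM CM, and Il6ra, Il6st and Stat3 among those lower. Saa3, an acute phase protein gene, went from 0.440 CPM in M0 CM to 19.2 in M1 CM and 26.6 in TAM CM. It fell to 0.129 CPM in M2 CM (edgeR quasi-likelihood adjusted p = 0.0102). That fall rests on 28 counts over the M0 CM libraries and 8 over those of M2 CM. Lcn2, an iron-binding acute phase gene, went from 0.704 CPM to 24.5 in M1 CM and 18.2 in TAM CM. Stat3 itself rose from 153 to 326 CPM in M1 CM and 165 in M2 CM and fell to 132 in TAM CM. The list of the NRF2 antioxidant pathway held 8 tested genes, its regulators Nfe2l2 and Keap1 included. Of these, 5 were higher and 1 lower in TAM CM, 5 and 0 in M1 CM, and 3 and 3 in M2 CM. Txnrd1 went from 493 CPM in M0 CM to 992 in TAM CM and 583 in M2 CM, Gclm from 86.6 to 230.2 in TAM CM, 184 in M1 CM and 130.4 in M2 CM, and Keap1, whose product restrains NRF2, from 63.5 to 36.2 CPM in TAM CM. Keap1 was also lower in M2 CM, at 56.3 CPM, and higher in M1 CM, at 80.8 CPM. The shares of all genes called, 70% in TAM CM, 53.4% in M1 CM and 39.4% in M2 CM, apply to these lists too.

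For each of the 8 genes, the 3 genes of the most similar pattern were taken by Pearson's r of log2 CPM over the 12 libraries, among 9883 genes with a mean of at least 5 CPM. All points share the 4 media, and r is given as a description. Closest to Mt1 were Nt5dc3 (r = 0.996), Tubb3 (0.993) and the hexokinase gene Hk2 (0.992). Tubb3, for example, was at 3.72 ± 0.0971 CPM with M0 CM (SD, n = 3), 29.1 ± 1.09 with M1 CM, 5.99 ± 0.427 with M2 CM and 31.8 ± 3.11 with TAM CM. Closest to Mt2 were Rps3a3 (0.966), Med13 (0.959) and Gpank1 (0.957), and closest to Mtf1 were Zfp131 (0.986), Eif2b3 (0.985) and Tmem161b (0.984). Slc30a1 was most like Fam118b (0.982), Pop4 (0.981) and Sap30bp (0.980), and Slc30a4 most like Dusp1 (0.972), Atrx (0.951) and Rorb (0.949). For Slc39a6 the closest were the isoleucyl-tRNA synthetase gene Iars (0.995), Tmed4 (0.9945) and Abcb1b (0.994). Slc39a10 was most like Zfp503 (0.993), Adam10 (0.993) and Map3k14 (0.992), of which Map3k14 was at 70.7 ± 0.532 CPM with M0 CM, 37.2 ± 2.11 with M1 CM, 92.8 ± 0.545 with M2 CM and 27.8 ± 1.53 with TAM CM. Slc39a14 had the highest r of all, with Erlin1 (0.998), Mga (0.997) and Noc3l (0.997).

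The same measure was taken among the 8 genes. Mtf1, Slc30a1, Slc39a6 and Slc39a14, whose TAM CM libraries all lay above the other media, had r between 0.883 and 0.966 with each other. Mt1 also had its highest mean in TAM CM, with libraries that overlapped those of M1 CM. Slc30a4, lowest in TAM CM, had r between -0.891 and -0.863 with Mtf1, Slc30a1, Slc39a6 and Slc39a14. Each r is over the 12 libraries. Mt1 had r of 0.892 with Mt2 and -0.916 with Slc39a10. Its r was 0.869 with Slc39a6, 0.772 with Mtf1, 0.675 with Slc39a14 and 0.644 with Slc30a1.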

How the data were processed

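Counts per gene were analysed for 12 libraries of SCC7 RNA, 3 for each of 4 media, grouped by their titles. The authors deposited whole-number read counts for each Ensembl gene, which differ in total between libraries and so carry no scaling. The submitters' processing notes name HISAT2 2.0 and mm10. The tool that counted reads, its annotation and its strand setting were not given in the sources used here. Of 55487 genes, 55141 were matched to a symbol of GENCODE M21 (GRCm38, the same assembly as mm10), which also gave coordinates and exon lengths.

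Counts were fitted in R 4.3.3 with edgeR 4.0.16: filterByExpr (the genes removed held 0.0816% of counts), TMM, a robust glmQLFit over the 4 group means, and glmQLFTest for 6 comparisons. Benjamini-Hochberg adjustment ran over all 14509 genes, with a threshold of 0.05. Each SE is the size of the log2 fold change divided by the root of its F value. The step was tested on simulated counts. log2 CPM used a prior count of 2. Alternatives were DESeq2 1.42.0, its size factors, unscaled library sizes, other filters, fits of 2 groups, a replicate term and each library left out. Figures used matplotlib 3.10.9, and upstream sequences are RefSeq's (GRCm38.p6).

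The 8 genes, the lists and the naming rule were chosen with earlier results of these data known. The rule names the 8 genes, every tested ZnT and ZIP gene, up to 3 genes with the smallest p per list, and the 3 most similar genes by r, without predicted genes. Outside the rule, Ndrg1, Hmox1 and Slc7a11 were named for the size of their change. Signalling genes were named to show what their lists held. The marker lists of melanocytes, fibroblasts, T cells and B cells were also summed in each library, at 5.57 to 13.0 CPM for melanocytes, 1148 to 2651 for fibroblasts, 0 to 0.0512 for T cells and 0.0464 to 0.407 for B cells.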

Additional observations from a re-analysis of the deposited data

How the results depend on the processing

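The 48 fold changes of the 8 genes were refitted under 19 alternatives, and 880 of the 912 values kept their sign and their side of the threshold. The 3 that changed sign were all in M2 CM against M1 CM and past no threshold: Slc30a1 (0.06 with all libraries, log2) ranged from -0.0479 to 0.172 with a library left out, below 0 without the third M1 CM or the third M2 CM library (-0.022), and Slc39a14 (-0.02) from -0.0567 to 0.0053, above 0 without the second M1 CM library. Against M0 CM, the genes lower in M1 CM numbered 2 in place of 1 with library sizes alone, since Slc30a4 was then called. Those lower in M2 CM numbered 0 in place of 1 by DESeq2, and from 0 to 1 with a library left out. With a library left out, the genes higher than in M0 CM numbered 3 to 5 in M2 CM and 4 to 5 in M1 CM. In TAM CM against M1 CM, 4 to 5 were then higher and 2 to 3 lower. Library sizes alone moved the median of all genes by -0.0958 (log2) in TAM CM against M0 CM and by less in the other 5 comparisons. A replicate block changed 2 calls, both in TAM CM against M1 CM: Mt1 no longer passed (edgeR adjusted p = 0.0766) and Mt2 did (0.0329). Deviations of same-numbered libraries from their group means correlated between -0.0289 and 0.0507 in 18 pairs. These correlations ran over all genes tested, with their counting noise, so they cannot exclude a shared culture or run. Mt2 also passed in TAM CM against M1 CM with no filter on low counts (edgeR adjusted p = 0.00934). Depth limits Mt2, whose M0 CM mean rests on 33 counts. Using the principal or the longest transcript as the length moved 21 of 32 levels per kilobase by more than 1 SD.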
